A study of Homo sapiens with 8 samples.

Results

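The p53 target genes described here are MDM2, CDKN1A, GADD45A, SESN1, BAX, BBC3, FAS, RRM2B and ZMAT3, a set of 9 genes taken by symbol out of the 58735 genes with RSEM estimates. Together they carry 109 of the 206601 annotated transcripts. The cells were BEAS-2B, an established human bronchial epithelial line transformed with an adenovirus 12-SV40 hybrid virus, grown at the air–liquid interface. Cultures received clean air (CA) or 1 ppm formaldehyde (FA) during a 2 h exposure and were then left to recover for 6 h, and rRNA-depleted RNA was divided into total input RNA (IN) and RNA immunoprecipitated with an antibody to 8-oxo-7,8-dihydroguanosine (8-oxoG), an oxidized form of guanosine (IP). The groups CA_IN, FA_IN, CA_IP and FA_IP held 2 libraries each, described by the study as biological duplicates of 1 cell line. The questions were whether these transcripts were higher in input RNA after formaldehyde, and whether they were over- or under-represented in the pull-down relative to input.

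The transcription factor p53 is stabilized after DNA damage and binds response elements near its target genes. Its targets include its own inhibitor (MDM2), cell-cycle and damage-response genes (CDKN1A, GADD45A, SESN1, RRM2B), death genes (BAX, BBC3, FAS) and an RNA-binding protein (ZMAT3). Formaldehyde forms adducts and crosslinks with DNA and protein. The large T antigen of SV40 binds p53 and interferes with its activation of transcription, which limits this line as a model of the pathway; T antigen itself was not analysed here.

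Total expected counts ran from 26152651 to 45144392 for input RNA, while a pull-down library held 16883500 to 23658012. Mitochondrial transcripts took 13.5 to 14.8% of the input counts and 9.60 to 11.3% of the pull-down counts. All 7 bronchial epithelial and keratin markers passed the count minimum, and their summed CPM (counts scaled to the size of each library) was 2380 to 3150 in the inputs. The 3 mesenchymal markers (VIM, COL1A1 and FN1) also passed, with a summed CPM of 1780 to 2030 in the inputs. Ciliated and secretory markers summed to at most 0.289 CPM in any library.

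On GRCh38 the members whose sequences or isoforms are shown are MDM2 (ENSG00000135679, chr12:68808177-68845544), CDKN1A (ENSG00000124762, chr6:36676460-36687337) and GADD45A (ENSG00000116717, chr1:67685201-67688334), all on the plus strand, with FAS (ENSG00000026103, chr10:88953813-89029605, plus strand) and ZMAT3 (ENSG00000172667, chr3:178960121-179072215, minus strand).

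The published p53 response element consists of a pair of 10-base half-sites, each reading RRRCWWGYYY, where R is A or G, W is A or T and Y is C or T. The core is CWWG, and in the search its W positions were among those free to mismatch. GRCh38 was searched within 5000 bases on either side of the start of each gene's most abundant transcript, with both core C and G bases required, at most 2 mismatches over the other 16 positions and a spacer of at most 2 bases between half-sites; the motif reads the same on both strands. Such a match was present for 7 of 9 genes and in 20.6% of the 18166 windows of all genes tested that could be placed. With at most 1 mismatch, 3 of 9 genes (GADD45A, RRM2B and ZMAT3) had a match, against 3.25% of windows. The looser limit was set after the stricter search had been run. The following matches, on the plus strand of GRCh38 with the core bases in capitals, are shown for 5 genes because p53 acts on its targets through such elements; the RRM2B sequence is not reported here, and BAX had overlapping matches.
MDM2 (chr12:68808923-68808942): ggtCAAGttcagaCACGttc
CDKN1A (chr6:36676449-36676468): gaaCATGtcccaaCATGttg
GADD45A (chr1:67686775-67686794): gaaCATGtctaagCATGctg
FAS (chr10:88991309-88991328): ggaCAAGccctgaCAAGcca
ZMAT3 (chr3:179070188-179070207): aggCATGtctggaCTTGttt
The MDM2 match lay 756 bases downstream of the upstream start, in the first intron, and the printed CDKN1A match lay upstream, at position -2256 from the start. Those printed for GADD45A, FAS and ZMAT3 lay 1584, 492 and 1612 bases downstream. CDKN1A and GADD45A each had a further match that is not printed, at positions -3984 and 4100 from the start, with 2 mismatches. The ZMAT3 match had 0 mismatches. SESN1 and BBC3 had no match in these letters within the window, which says nothing of binding.

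All 9 genes passed the count minimum, and their levels in input spanned a wide range. Levels are compared between genes in TPM, a unit corrected for transcript length and library size, as the mean over the 4 inputs ± SD. CDKN1A, which encodes the cell-cycle inhibitor p21, was highest at 24.2 ± 1.89 TPM (n = 4), followed by GADD45A, a growth-arrest and DNA-damage protein, at 21.2 ± 3.23 TPM and the pro-apoptotic BAX at 18.8 ± 1.37 TPM. These neighbours overlapped in their ranges. MDM2, the ubiquitin ligase that degrades p53, stood at 13.2 ± 2.05 TPM, below the lowest value of each of the former. RRM2B, a ribonucleotide reductase subunit, and FAS, a death receptor, followed at 3.38 ± 0.397 and 3.09 ± 0.251 TPM and overlapped each other. SESN1, a sestrin that restrains mTOR signalling, stood at 1.40 ± 0.399 TPM. ZMAT3 at 0.783 ± 0.149 and the BH3-only death gene BBC3 (PUMA) at 0.638 ± 0.0939 TPM were lowest and overlapped. MDM4, the p53-binding relative of MDM2, was at 3.42 ± 0.290 TPM.

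None of the 9 genes passed the test between FA_IN and CA_IN. By edgeR, 0 of 9 were called at an adjusted p under 0.05 (smallest adjusted p = 0.945), against 1 of 18242 genes tested (0.00548%). An unadjusted p under 0.05 was found for 1 member, GADD45A, against 611 of 18242 genes. DESeq2 on all 8 libraries also called 0 members. The median log2 fold change of the 9 genes was -0.15, against 0.02 over all genes, with 2 members above 0 and 7 below. In bulk RNA, fewer expressing cells and less RNA per cell cannot be told apart.

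Among the cell-cycle and damage-response genes, GADD45A showed the most separated values. Its CPM was 55.5 and 67.1 in CA_IN and 85.0 and 79.0 in FA_IN. Both FA_IN libraries lay above both CA_IN libraries, and the fold of 1.34 had a 95% interval of 1.10 to 1.62 (log2 fold change 0.42, standard error 0.12, adjusted p = 0.945 by edgeR). The pull-downs, made from the same RNA, showed the same order with 64.3 and 75.8 CPM in CA_IP and 95.1 and 89.0 in FA_IP. Without replicate 1 of CA_IN the log2 fold change was 0.29, and without replicate 2 it was 0.55. With the number in the file names as a replicate block, the adjusted p of GADD45A was 0.0532 by edgeR, and 258 genes were called overall.

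CDKN1A differed in the opposite direction, with 124 and 116 CPM in CA_IN and 111 and 106 in FA_IN. The groups did not overlap, yet the log2 fold change of -0.15 (standard error 0.08) missed the threshold, and its interval ended at a 1.03-fold increase. MDM2 was at 109 and 95.2 CPM in CA_IN and 85.6 and 96.1 in FA_IN, so its groups overlapped. Its log2 fold change was -0.17 (standard error 0.13), with an interval from 0.724-fold to 1.10-fold.

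SESN1 had the lowest log2 fold change of the members, -0.56 (standard error 0.30). Its CPM was 14.8 and 9.92 in CA_IN and 8.94 and 7.87 in FA_IN. The gap rested in part on replicate 1 of CA_IN, without which the log2 fold change was -0.24. RRM2B gave 33.4 and 35.2 CPM in CA_IN and 30.3 and 38.1 in FA_IN, with both FA_IN libraries outside the CA_IN range on opposite sides and an interval of 0.816-fold to 1.22-fold.

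The death genes gave values of both signs. BAX was at 31.9 and 31.5 CPM in CA_IN and 36.4 and 36.0 in FA_IN, with a log2 fold change of 0.19 (standard error 0.11, adjusted p = 0.945 by edgeR). FAS was at 15.0 in both CA_IN libraries and 13.2 and 14.0 in FA_IN, a log2 fold change of -0.14 (standard error 0.13). BAX was thus higher and FAS lower in both FA_IN libraries, by amounts that did not pass the test. BBC3, at 1.58 to 2.00 CPM in all 4 inputs, had an interval from 0.590-fold to 1.38-fold. ZMAT3, which controls splicing and RNA stability, gave 18.5 and 16.6 CPM in CA_IN and 14.0 and 17.4 in FA_IN and overlapped between groups.

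Over the 9 genes, both FA_IN libraries lay above both CA_IN libraries for 2 (GADD45A and BAX), against 18.1% of all genes, and below for 3 (CDKN1A, SESN1 and FAS), against 15.8%. MDM4 had a log2 fold change of -0.04 (standard error 0.13).

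**Figure D1:**
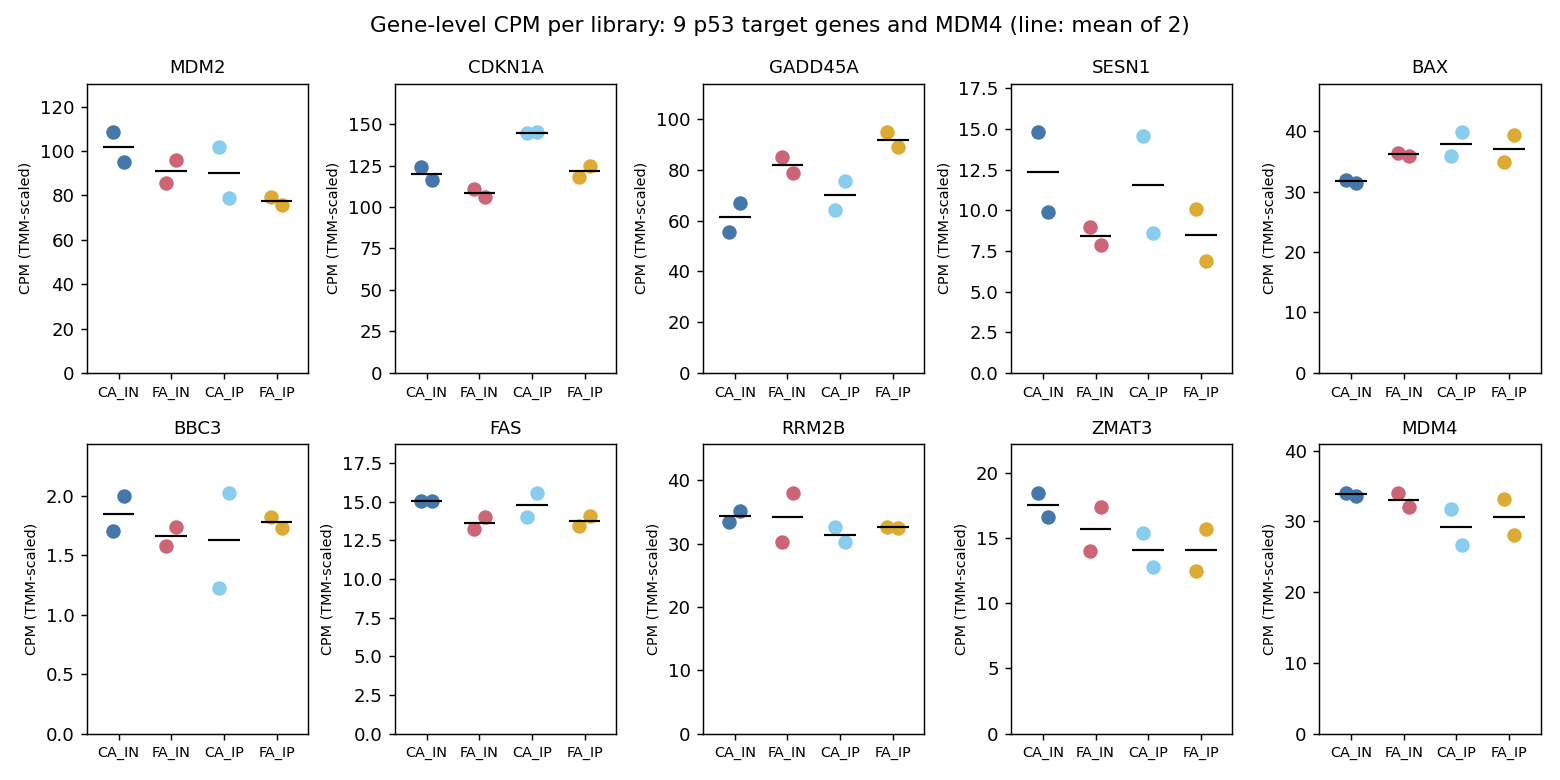
Gene-level CPM (y axis, linear, from 0) of the 9 p53 target genes and MDM4 in each of the 8 libraries by group (x axis); points are libraries and lines the mean of 2. GADD45A lies at 79.0 and 85.0 CPM in FA_IN above 55.5 and 67.1 in CA_IN, while CDKN1A is highest in CA_IP.

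The wider p53 network also gave no calls in input. Of 38 other listed p53 targets, 37 were tested and 0 passed by edgeR between FA_IN and CA_IN. At an unadjusted p under 0.05 there were 3, against 611 of 18242 genes. Of the 37, 20 lay above 0 and 17 below, with a median of 0.03. The extremes were TNFRSF10C, a decoy receptor for TRAIL, at 0.42, and GDF15, a stress cytokine, at 0.39. At the low end stood the decapping cofactor DCP1B at -0.44 and the translesion polymerase POLH at -0.43. TNFRSF10C had at most 0.347 CPM in an input library. Among 20 p53 regulators and partners 0 passed (0 at an unadjusted p under 0.05), between the kinase DYRK2 at -0.55 and the p53 relative TP73 at 0.41. The next in order were TP53BP2, a p53-binding protein that favours death genes, at -0.29 and the ubiquitin ligase COP1 at 0.26. Genes repressed through p21 and the DREAM complex, which fall when p53 is active, numbered 18, and 0 passed (0 at an unadjusted p under 0.05). Their median was 0.05, with 13 above 0, from the cyclin CCNA2 at -0.18 and the chromatin assembly factor CHAF1A at -0.14 to the mitotic kinase AURKB at 0.16 and the anaphase activator CDC20 at 0.18. All values in this paragraph are log2 fold changes of FA_IN over CA_IN.

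**Figure D2:**
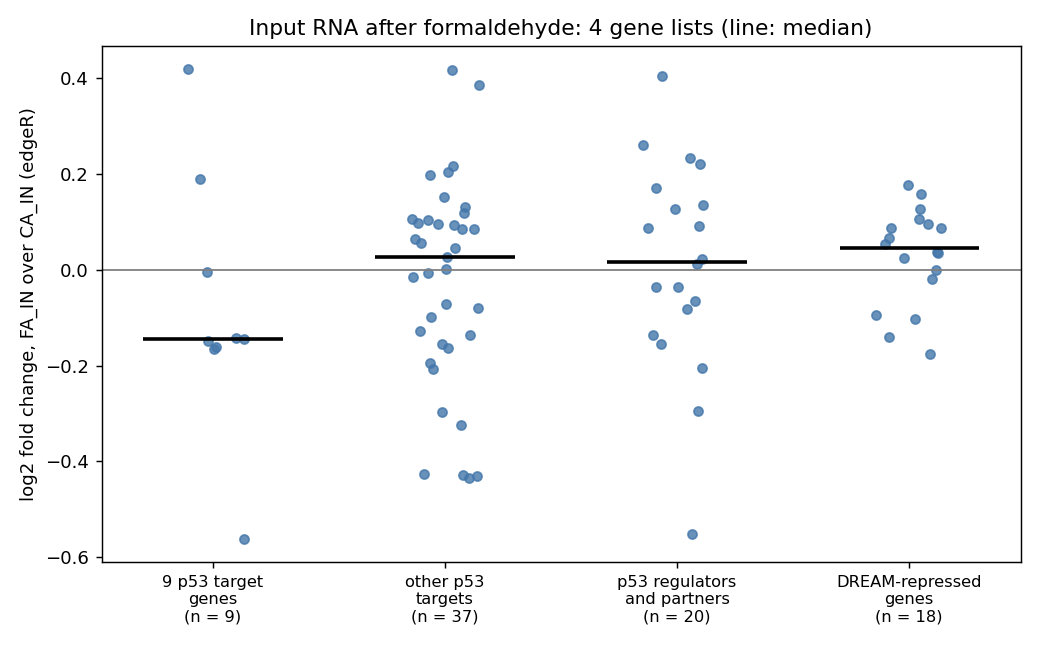
Log2 fold change of FA_IN over CA_IN (y axis) for each tested gene of 4 lists (x axis); points are genes, spread sideways only for legibility, and lines are medians. The medians are -0.15 for the 9 p53 target genes, 0.03 for other p53 targets, 0.02 for regulators and 0.05 for DREAM-repressed genes.

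In the pull-down without formaldehyde, 0 of 9 genes were called between CA_IP and CA_IN by edgeR, against 1.91% of genes. DESeq2 called 0 as well. At an unadjusted p under 0.05 were 2 of 9 members, against 2294 of 18242 genes. CDKN1A stood at 144 and 145 CPM in CA_IP, above the 124 and 116 of CA_IN. Its log2 fold change was 0.27 (standard error 0.08, adjusted p = 0.174 by edgeR). BAX, at 36.0 and 39.9 CPM in CA_IP, had 0.26 (standard error 0.11), and ZMAT3, at 15.4 and 12.8 CPM, had -0.32 (standard error 0.18). CDKN1A and BAX lay above the CA_IN values in both libraries, 2 of 9 genes against 22.9% of all genes. ZMAT3 and RRM2B (32.6 and 30.2 CPM in CA_IP against 33.4 and 35.2) lay below them, 2 of 9 against 18.1%. The median of the 9 genes was -0.09, against 0.02 over all genes. These directions hold for CPM and depend on the unit. In TPM the mean of each of the 9 genes was higher in CA_IP than in CA_IN. MDM4, which is not a member, was also higher, at 5.3 TPM against 3.34. The share of all genes that were higher in TPM was not computed, so this count is not a result about the members. ZMAT3 was at 1.395 TPM against 0.82, and RRM2B at 6.15 against 3.425. The TPM values were not tested between groups, and the cause of the difference between units was not tested.

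Input and pull-down of a treatment were fractions of the same RNA, and the numbers in the file names tie them. With the RNA pool as a block, the calls changed: CDKN1A (adjusted p = 0.00573), BAX (adjusted p = 0.0269) and ZMAT3 (adjusted p = 0.0183, lower) passed by edgeR in CA_IP against CA_IN, while the genes called overall went from 349 to 3179 (17.4%). The fold changes were nearly the same as without the block, 0.27, 0.26 and -0.32.

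After formaldehyde, 0 of 9 genes were called between FA_IP and FA_IN (1.5% of genes called, 0 members called by DESeq2). At an unadjusted p under 0.05 were 0 members, against 1660 of 18242 genes. With the RNA pool as a block 0 passed by edgeR (smallest adjusted p = 0.0522). In that fit 3 members had an unadjusted p under 0.05, a level at which all genes were not counted. Genes called overall went from 274 to 1835. CDKN1A was at 118 and 125 CPM in FA_IP against 111 and 106 in FA_IN, a log2 fold change of 0.16 (standard error 0.08). MDM2, at 79.2 and 75.8 CPM in FA_IP, had the lowest value, -0.23 (standard error 0.13). The others lay between -0.16 (ZMAT3) and 0.17 (GADD45A), and the median was 0.01 against 0.00 over all genes. In TPM the mean of each of the 9 genes was again higher in the pull-down, here FA_IP over FA_IN. So was that of MDM4, at 5.835 TPM against 3.505, and the share over all genes was again not computed. MDM2 was at 10.62 and 13.4 TPM in FA_IN and 17.06 and 19.96 in FA_IP, the reverse of its order in CPM. The difference in enrichment between the treatments was also called for 0 of 9 genes (0% of genes called, 0 members by DESeq2). It ranged from -0.22 for BAX to 0.28 for BBC3. At an unadjusted p under 0.05 were 0 members, against 195 of 18242 genes.

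**Figure D3:**
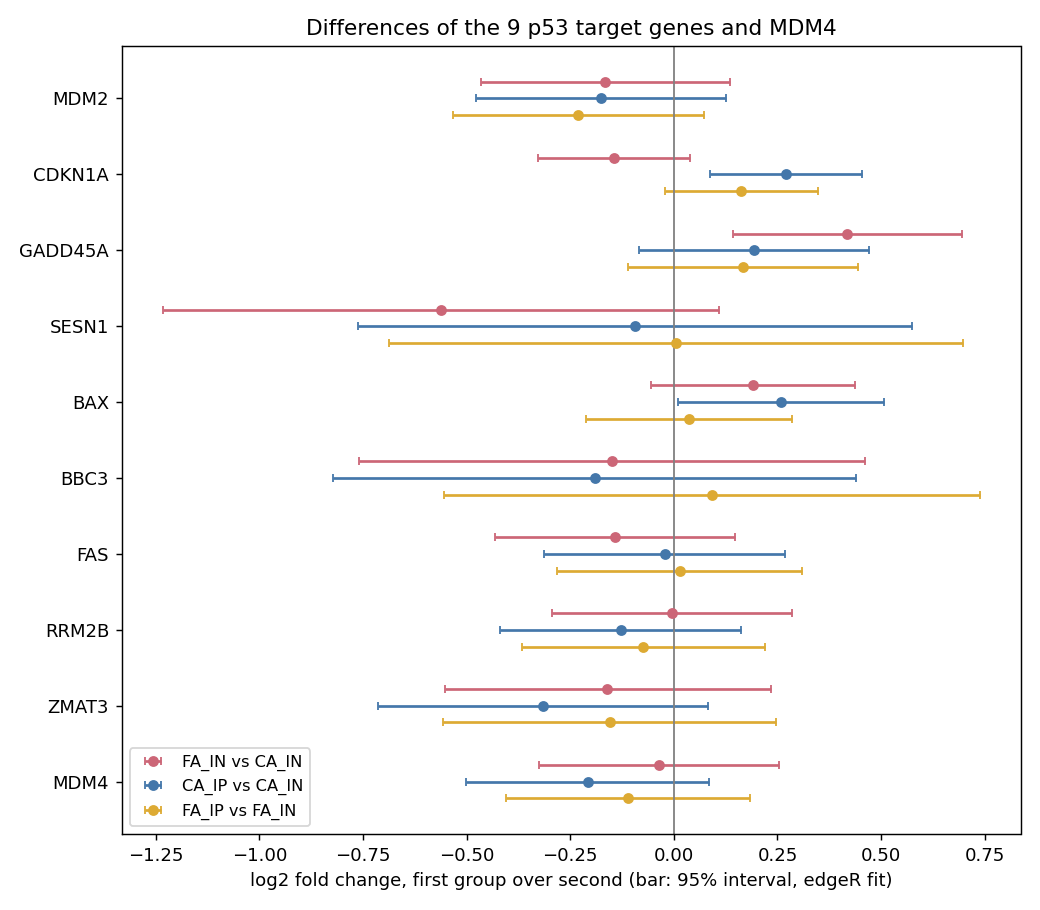
Log2 fold change (x axis) with its 95% interval from the edgeR fit (bars) for the 9 p53 target genes and MDM4 (y axis) in FA_IN over CA_IN, CA_IP over CA_IN and FA_IP over FA_IN. Intervals that do not reach 0 are those of GADD45A in input and of CDKN1A and BAX in CA_IP; none passed the adjusted threshold.

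A few genes of the wider lists did pass in the pull-downs. Over all genes, 1.91% were called in CA_IP against CA_IN and 1.5% in FA_IP against FA_IN. Most of those calls were lower in the pull-down: 27 higher and 322 lower in CA_IP, and 6 higher and 268 lower in FA_IP. RPS27L, a p53-inducible ribosomal protein paralog, was lower in CA_IP than in CA_IN (28.0 and 29.1 against 49.1 and 49.4 CPM, log2 fold change -0.79, adjusted p = 0.0032 by edgeR) and lower in FA_IP than in FA_IN (-0.73, adjusted p = 0.006). SFN, the p53-inducible 14-3-3 sigma protein, was higher in CA_IP than in CA_IN at 0.51 (adjusted p = 0.0414). Its value after formaldehyde was 0.40 (adjusted p = 0.15). MCM2, a replicative helicase subunit on the DREAM list, was higher in CA_IP at 0.39 (adjusted p = 0.045). Among the 7 epithelial markers, KRT8, a keratin, was also higher in CA_IP than in CA_IN (555 and 595 against 436 and 428 CPM, log2 fold change 0.41, adjusted p = 0.0347 by edgeR). All 7 were above 0 in that comparison, with a median of 0.40, and their summed level was 2380 to 2780 CPM in CA_IN and 3000 to 3800 in CA_IP. In FA_IP it was 3150 to 4080 against 2640 to 3150 in FA_IN, with 6 of 7 above 0 and 0 called; the part of these differences in the members' values was not tested. The other 35 p53 targets tested, all 20 regulators and the other 17 DREAM genes did not pass in either pull-down comparison.

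MDM2 has an upstream start in exon 1 and an internal start in the first intron, the latter adjoining the response element printed above. In the internal class, which includes ENST00000539479 (start at 68809002 on chromosome 12), lay 25.1 ± 1.4% of the MDM2 expected counts in CA_IN and 25.4 ± 1.6% in FA_IN (SD, n = 2). The exon 1 class held 67.4 ± 0.4% and 68.0 ± 0.8%. These are shares of counts, not corrected for transcript length. The main exon 1 transcript, ENST00000258149, has 12633 bases, and ENST00000539479 has 2523. The shares therefore do not rank the starts by number of molecules. The spread between duplicates exceeded the change with formaldehyde in the internal class. In the pull-downs the internal class held 27.2 ± 0.6% in CA_IP and 24.3 ± 4.2% in FA_IP. This grouping by annotated start was made after the annotation of these transcripts had been read, and RSEM divides reads shared by both classes by estimation.

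**Figure D4:**
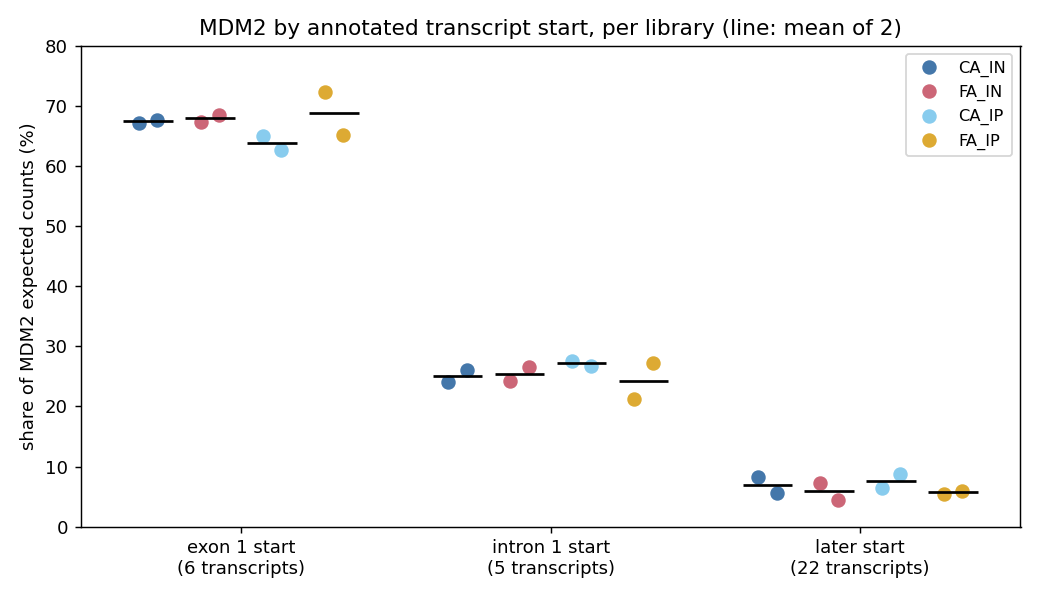
Share of MDM2 expected counts (y axis, %) by the annotated start of the transcript (x axis; 6, 5 and 22 transcripts) in the 8 libraries; points are libraries and lines the mean of 2. The internal start in intron 1 holds 24.1 to 26.5% in all 4 inputs.

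Of the 109 transcripts of the 9 genes, 52 passed the count minimum. Isoform shares here and below are of expected counts and are not corrected for transcript length. A single isoform led in most genes: ENST00000311417 held 93.9% of ZMAT3 counts on average over the 8 libraries, ENST00000370986 89.6% of GADD45A, ENST00000244741 87.9% of CDKN1A and ENST00000251810 87.6% of RRM2B. FAS ENST00000355740 and MDM2 ENST00000258149 held 64.2% and 60.1%, and SESN1 was divided between ENST00000436639 (58.4%) and ENST00000356644 (36.9%). BAX was led by ENST00000345358 (50.4%) and ENST00000293288 (25.7%). BBC3 was led by the retained-intron transcript ENST00000598636 (40.7%), but its shares varied widely between duplicates, with ENST00000439096 at 18.9% and 37.8% in CA_IN. Between FA_IN and CA_IN, 0 of 52 transcripts were called by edgeR (0% of transcripts tested, 0 members by DESeq2), and 0 of 52 shares (0.169% of shares called). At an unadjusted p under 0.05 were 2 member transcripts, against 1898 of 67873 transcripts. The same level was reached by 1 member share, against 2099 of 61615 shares. In FA_IP against FA_IN, 0 member transcripts (0.144% of transcripts, 0 members by DESeq2) and 0 member shares (0.242% of shares) were called. At an unadjusted p under 0.05 were 2 member transcripts, against 4039 of 67873 transcripts. The same level was reached by 3 member shares, against 2924 of 61615 shares.

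In CA_IP against CA_IN, 1 isoform share was called (0.38% of shares). ENST00000617962 of GADD45A made up a smaller part of the gene in the pull-down (adjusted p = 0.00503 by edgeR's test of a transcript against the rest of its gene). This isoform and MDM2 ENST00000393417, described next, are among those that the study lists from these same samples, so neither is an independent choice. ENST00000617962 uses an acceptor in exon 3 that lies 54 bases downstream and drops 18 codons (chr1:67686350-67686403), without a change of frame. The exon junctions that tell it from the main isoform are given on the plus strand of GRCh38, with the second exon in capitals.
ENST00000617962: caagctgctcaacgtAGATGTGGCTCTGCA
ENST00000370986: caagctgctcaacgtCGACCCCGATAACGT
Expected counts of ENST00000617962 were 178 and 313 in CA_IN, 124 and 324 in FA_IN, 0 in both CA_IP libraries and 13.0 and 79.8 in FA_IP. The CA_IP libraries were thus empty of it, and FA_IP held less than either input group.

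As a share of GADD45A counts, the isoform was at 7.36% (exact 95% binomial interval 6.35 to 8.48%) and 12.7% (11.5 to 14.1%) in CA_IN and at 6.07% (5.07 to 7.19%) and 11.9% (10.7 to 13.1%) in FA_IN. It was at 0 of 1522 and 0 of 1572 counts in CA_IP, where the exact intervals reach up to 0.242% and 0.234% (3 counts, the floor used below for folds, would be 0.197% and 0.191%), and at 0.756% (0.403 to 1.29%) and 3.69% (2.94 to 4.58%) in FA_IP. Even the higher FA_IP library stood below the lowest input library. With 3 counts taken for each empty library, its level was 47.6-fold lower in CA_IP than in CA_IN, and 30.5-fold without replicate 2 of CA_IN. These folds are not lower limits, since the exact intervals reach above 3 counts and the input values carry error too. In FA_IP it was 3.67-fold lower than in FA_IN, where the share missed the threshold (adjusted p = 0.985 by edgeR). That fold rests on unequal libraries: it was 2.23 without replicate 1 of FA_IP and 10.3 without replicate 2. Without replicate 2 of CA_IN the share call in CA_IP was lost (adjusted p = 0.0667). Intervals and floors cover counting error only, and an expected count of 0 can also arise where RSEM assigned all shared reads to another isoform.

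ENST00000393417 of MDM2 contains an extra exon of 87 bases (chr12:68814603-68814689) that holds a stop codon, and the annotation classes it as a target of nonsense-mediated decay, the pathway that degrades messages with an early stop. Its junctions, in the same notation, are set beside the one that replaces them in the main isoform.
ENST00000393417, into the extra exon: tatactatgaaagagGACTTCTTGGGCATC
ENST00000393417, out of the extra exon: ctttctgggatagagGTTCTTTTTTATCTT
ENST00000258149: tatactatgaaagagGTTCTTTTTTATCTT
Expected counts of the decay isoform were 45.0 and 33.4 in CA_IN and 10.1 and 25.1 in FA_IN. They were 0 in both CA_IP libraries and 28.8 and 37.2 in FA_IP. The isoform was therefore not detectable in the clean-air pull-down at this depth and present in the pull-down after formaldehyde. Another MDM2 isoform, ENST00000393412, was also at 0 in both CA_IP libraries, against 40.75 and 18.97 in CA_IN. It was at 8.84 and 0 in FA_IP. Here too, an expected count of 0 can arise where RSEM assigned all shared reads to another isoform.

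The share of ENST00000393417 in MDM2 was 0.952% (exact 95% binomial interval 0.695 to 1.27%) and 0.947% (0.653 to 1.33%) in CA_IN. It was 0.486% (0.233 to 0.892%) and 0.752% (0.487 to 1.11%) in FA_IN, and 2.03% (1.36 to 2.90%) and 2.01% (1.42 to 2.76%) in FA_IP. In CA_IP it was 0 of 2407 and 0 of 1629 counts, where the exact intervals reach up to 0.153% and 0.226%, and 3 counts would be 0.184% in the library with fewer counts. With the same floor of 3 counts, the level was 7.31-fold lower in CA_IP than in CA_IN. It was 2.68-fold higher in FA_IP than in FA_IN. With that floor, the enrichment in FA was 19.6 times that in CA, and this ratio ran from 15.3 to 27.5 with each library left out. For ENST00000617962 the ratio was 13, but it was 4.62 without replicate 2 of FA_IP, 21.3 without replicate 1 of FA_IP and 8.33 without replicate 2 of CA_IN. At the transcript level edgeR called 0 of 52 isoforms in CA_IP against CA_IN (0.242% of transcripts, smallest adjusted p = 0.0681, that of ENST00000393417). At an unadjusted p under 0.05 were 8 of them, against 4789 of 67873 transcripts. For the difference in enrichment edgeR called 0 (0% of transcripts, smallest adjusted p = 0.591). There 2 of the 52 were at an unadjusted p under 0.05, against 1985 of 67873 transcripts. DESeq2 called both isoforms in CA_IP against CA_IN (adjusted p = 0.00182 for ENST00000393417 and 3.59e-06 for ENST00000617962) together with CDKN1A ENST00000244741 (adjusted p = 0.0275, higher), and both for the difference (adjusted p = 0.00254 and 0.0264). DESeq2 made more calls over all transcripts as well, 1338 (2.28%) in CA_IP against CA_IN and 213 (0.326%) for the difference, where edgeR made 164 and 0. Over all transcripts tested, 284 of 67873 (0.418%) had both CA_IP libraries at 3 counts or fewer and every other library above 3, and 381 (0.561%) had the same pattern with FA_IP as the empty group.

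**Figure D5:**
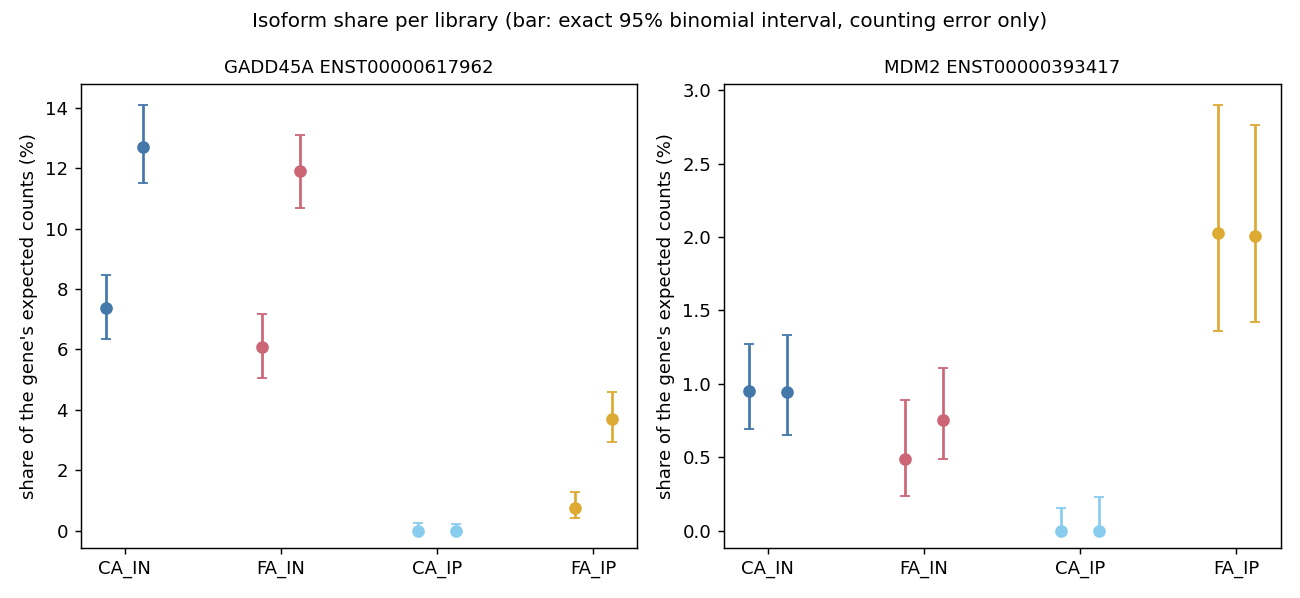
Share of the gene's expected counts (y axis, %) of GADD45A ENST00000617962 and MDM2 ENST00000393417 in the 8 libraries by group (x axis); points are libraries and bars exact 95% binomial intervals, which cover counting error only. Both isoforms are at 0 in the 2 CA_IP libraries, and the MDM2 isoform is at 2.03 and 2.01% in FA_IP.

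The most abundant isoforms of the 9 genes covered much of the range of length and base composition found among tested genes. Lengths in the files ran from 793 bases for BAX to 12633 for MDM2, with a median of 2563 against 2587 over 18166 genes. Guanine, the base that 8-oxoG derives from, made up 34.7% of the BAX isoform and 34.3% of that of BBC3, and 19.2% of those of FAS and RRM2B. The median of the 9 genes was 21.8%, against 24.7% over all genes.

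Across the 8 libraries the 9 genes differed in pattern. Pearson correlations of log2 CPM between pairs ran from -0.86 (MDM2 with GADD45A) to 0.75 (MDM2 with ZMAT3). These libraries come from 4 groups and share RNA between input and pull-down, so the values are a description. Among 5021 genes with a mean log2 CPM of at least 5, the patterns most like that of CDKN1A were NACC1 (r = 0.985), GUCD1 (r = 0.983) and DAXX (r = 0.971). For MDM2 they were RO60 (r = 0.993), RANBP2 (r = 0.987) and PHIP (r = 0.982). For the mean of the members, TENT2 (r = 0.984), TDG (r = 0.97) and MIB1 (r = 0.952) came first. High values were common over only 8 libraries. The 99th percentile of r over the genes compared was 0.91 for CDKN1A, 0.947 for MDM2 and 0.852 for the mean of the members.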

How the data were processed

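The authors trimmed paired reads with cutadapt, aligned them with STAR 2.6.0a in a pair of passes to Ensembl GRCh38 release 94, and deposited RSEM 1.2.25 estimates: an expected count and a TPM value per transcript in each of 8 libraries. The deposited DESeq2 tables hold the authors' fold changes and p-values and were not used. The counting command that the authors give sets no strand option. Replicates 1 and 2 follow accession order, since the labels carry no numbers; the file names number them 1 and 3.

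From there, expected counts were summed by gene (symbols from GENCODE 44 for 58207 of 58735 genes), rounded, and kept where at least 2 libraries had 10 or more, which left 18242 genes and 67873 transcripts. They were scaled by TMM and tested with edgeR 4.0.16's quasi-likelihood test on all 8 libraries (R 4.3.3), with Benjamini-Hochberg adjustment over all features and calls at an adjusted p under 0.05; isoform shares were tested with edgeR's diffSpliceDGE. DESeq2 1.42.0, 4-library fits, library-size scaling, other filters, blocks and leaving out each library were alternatives. Standard errors and intervals of log2 fold changes come from the edgeR fit. Depth, given with the samples, limits low genes such as BBC3. The cultures were duplicates of 1 line, with 2 libraries a group. The main fit pooled the spread within groups over all 8 libraries and treated input and pull-down of the same RNA as independent. Libraries of the same number deviated together (r = 0.738 for CA_IN with CA_IP, 0.592 for FA_IN with FA_IP, 0.549 for CA_IN with FA_IN). The p-values and intervals of the main fit take no account of this.

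The members, the lists and the rule for named genes (all members, MDM4, called genes of each list, the 2 highest and 2 lowest in input) were chosen with earlier results of these data known. One gene of these lists is not reported here. Promoter-proximal sequences and junctions were read from GRCh38.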

Additional observations from a re-analysis of the deposited data

How the results depend on the processing

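Between FA_IN and CA_IN, 0 of the 9 genes and 0 isoforms or shares were called under any alternative run, including each library left out; with the number in the file names as a replicate block, the smallest adjusted p was 0.0532 (GADD45A, edgeR), and genes called overall went from 1 to 258. Libraries of the same number deviated together, with correlations of 0.447 to 0.738 over genes, but that number is in no label and only 2 libraries a group carry it. In CA_IP against CA_IN, 1 member was called with library sizes in place of TMM (CDKN1A, adjusted p = 0.0231), 1 with the number block (CDKN1A, adjusted p = 0.0248) and 3 with the RNA pool as a block, while genes called overall went from 349 to 1157, 1941 and 3179; the cause was not tested. In FA_IP against FA_IN, library sizes, the number block and the pool block called 0 members. The smallest adjusted p of the members by edgeR was 0.0643, 0.242 and 0.0522, and genes called overall went from 274 to 561, 953 and 1835. Library-size scaling moved the median of all genes from 0.02 to 0.16 in CA_IP and from 0.00 to 0.17 in FA_IP, and that of the members to 0.057 and 0.183. At transcript level, DESeq2 called 3 member isoforms in CA_IP against CA_IN and 2 for the difference in enrichment, and edgeR without a count filter called 2 and 2; over all transcripts these called 1338 and 213, and 687 and 142, against 164 and 0. The GADD45A share call held under every alternative except without CA_IN replicate 2, so leaving out libraries gave 0 to 1 share calls. Leaving out each library gave members' medians of -0.207 to -0.081 in FA_IN, -0.118 to 0.052 in CA_IP, 0.00 to 0.074 in FA_IP and -0.068 to 0.075 for the difference.

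Of 656 single values recomputed, 30 changed sign, 0 of them called. In input this was RRM2B, at 0.004 by DESeq2 and -0.20 to 0.14 with libraries left out, and ENST00000617962, whose level ran from -0.32 to 0.85 and share from -0.53 to 0.19. With library sizes, SESN1, FAS and RRM2B were at 0.057, 0.13 and 0.02 in CA_IP, and RRM2B, ZMAT3 and MDM4 at 0.096, 0.011 and 0.063 in FA_IP. SESN1 in FA_IP was at -0.001 by DESeq2, 0.00 in the 4-library fit, -0.01 without a filter, -0.023 with the number block and -0.017 with the pool block. With libraries left out, values ran in CA_IP from -0.53 to 0.24 for SESN1, -0.59 to 0.14 for BBC3 and -0.098 to 0.052 for FAS. In FA_IP they ran from -0.29 to 0.28 for SESN1, -0.035 to 0.12 for BAX, -0.016 to 0.074 for FAS, -0.22 to 0.12 for RRM2B, -0.311 to 0.031 for ZMAT3 and -0.234 to 0.025 for MDM4.

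No rule for a closer look was applied: groups of 2 libraries are too small to test for a library that stands apart. With the count filter, edgeR called no member and no member isoform for the difference in enrichment between treatments. Depth limits BBC3 (1.23 to 2.03 CPM) and isoforms with few counts.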
